A study of Drosophila melanogaster with 4 samples.

Results

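The ecdysone response genes of the fly ovary are described here across 4 ovary RNA libraries. They are EcR, usp, Eip74EF, Eip75B, br, tai, ftz-f1, Hr39 and Hr4. All 9 of the named genes were found among the 14777 genes of the deposited tables, through 55 transcripts. They were picked by name from the textbook pathway, with earlier results of these libraries known, so the count of changed genes among them is a description.

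Ecdysone is the steroid hormone that times moulting and metamorphosis in insects, and the adult ovary makes and answers it as well. The hormone binds the receptor protein EcR, which pairs with Ultraspiracle, the product of usp, on DNA. The bound receptor switches on a small set of early genes, several of which encode transcription factors that act on a later set. In the ovary this cascade is known from the stem cell niche, border cell migration, the checkpoint on yolk-taking egg chambers and the making of the eggshell by follicle cells.

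The series asked whether embryos need Piwi, a nuclear protein that silences transposons with the help of piRNAs, if transposons are to stay controlled in the adult ovary. The knockdown group, piwi-embKD, had the genotype vasa-GAL80[ts]/+;;da-GAL4/shpiwi, and the control group, white-embKD, had vasa-GAL80[ts]/+;;da-GAL4/shwhite. Both groups therefore carried the broadly active da-GAL4 driver and the temperature-sensitive repressor GAL80, expressed from vasa, and differed in the hairpin. Flies were kept at 18 °C and embryos of both groups were moved to 28 °C, and each group has 2 libraries that the series calls independent biological replicates. The sources used here give neither the age of the flies, nor the number of ovaries per library, nor the temperature after the embryonic shift. Each hairpin came in its own fly stock, so hairpin and stock cannot be told apart.

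Levels are normalized effective counts, that is, estimated fragments per transcript after the authors' correction and scaling, summed per gene. They are not divided by transcript length, so levels are compared between libraries and not between genes. The libraries held an inferred 16194219 and 16445363 effective counts in piwi-embKD and 20025084 and 19271510 in white-embKD, and 3 counts were worth 0.188 and 0.183 in piwi-embKD and 0.148 and 0.151 in white-embKD. Across all features the piwi-embKD libraries correlated at r = 0.976 and the white-embKD libraries at r = 0.995, so the control pair was the tighter one. The hairpin's target, piwi, stood at 238 and 121 in piwi-embKD ovaries and at 410.0 and 401 in white-embKD ovaries (log2 change -1.25, limma adjusted p = 0.0562). The target of the control hairpin, w, stood at 3.34 and 2.87 in piwi-embKD and at 1.35 and 1.19 in white-embKD (log2 change 0.86, adjusted p = 0.1004).

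Eip74EF, Eip75B and Hr4 were higher in piwi-embKD ovaries, by 3.41, 1.82 and 5.32 times in the ratio of means. The white-embKD mean of Hr4 was under the minimum set for testing, so Hr4 entered the test through its piwi-embKD libraries. For the receptor genes, EcR and usp, the ratio of means was 0.910 and 1.06, and neither passed the test. Nor did br, tai, ftz-f1 or Hr39.

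Log2 changes below are piwi-embKD minus white-embKD on log2(value + 0.995), which understates the change of genes at low levels. Each has its SE and its p from limma, adjusted by Benjamini-Hochberg across the 8118 features tested, with 2 libraries per group. Over all features 5.17% were called higher and 1.68% lower in piwi-embKD at an adjusted p under 0.05. All 9 hormone genes were tested, and limma called 3 higher and 0 lower. With a stricter filter on low values, which drops Hr4, limma called 2 of the 8 genes left higher. Among all 9 genes limma gave 4 higher and 1 lower at an unadjusted p under 0.05. The share of all 8118 features at that unadjusted threshold is not given, so unadjusted counts of genes have no comparison here. Both piwi-embKD libraries lay above both white-embKD libraries for 25.9% of all features and below them for 33.1%. Among the 9 genes that was so for 5 above and 2 below. Their median log2 change was 0.41, beside -0.04 over all features.

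**Figure D1:**
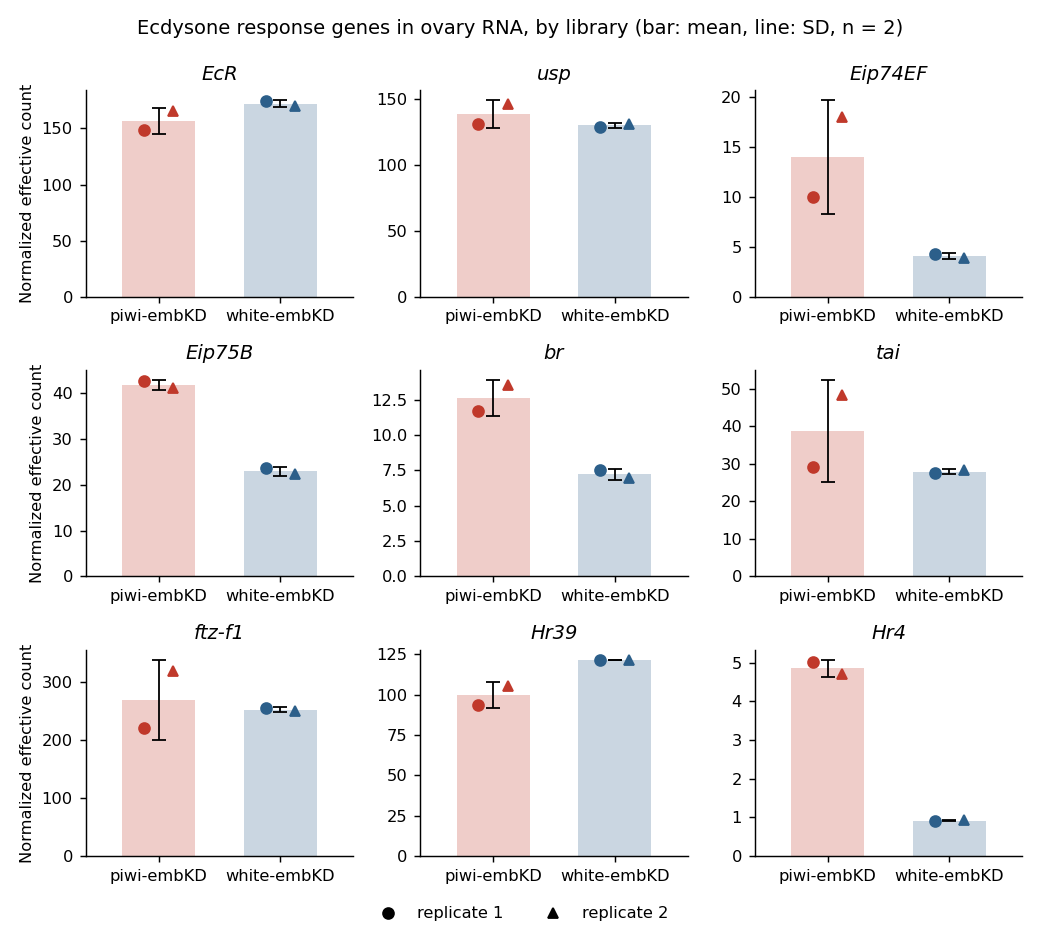
Level of each ecdysone response gene in normalized effective counts (vertical axis from 0, a separate scale in each panel) in piwi-embKD (left) and white-embKD (right); circles and triangles are replicates 1 and 2, bars are means and lines the SD (n = 2). Eip74EF, Eip75B, br and Hr4 have both piwi-embKD libraries clear above both white-embKD libraries, whereas usp and ftz-f1 overlap.

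The receptor genes come first. EcR encodes the nuclear receptor that binds the hormone. Its level was 148 and 165 in the piwi-embKD libraries and 174 and 170.1 in the white-embKD libraries, which rests on 2362 to 3529 effective counts a library. Both piwi-embKD values lay below both white-embKD values. The means were 157 ± 11.9 in piwi-embKD and 172 ± 2.98 in white-embKD (SD, n = 2 each), and the log2 change of -0.14 ± 0.10 did not pass the test (adjusted p = 0.415, 95% interval -0.37 to 0.10). Of all features, 34.0% had a lower log2 change than EcR.

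The gene usp encodes the fly counterpart of the vertebrate retinoid X receptors and is the obligate partner of EcR. It stood at 131 and 146 in piwi-embKD and at 129 and 131 in white-embKD. The groups overlapped when replicate 1 of piwi-embKD was set beside replicate 2 of white-embKD. The log2 change was 0.09 ± 0.10 (adjusted p = 0.603, 95% interval -0.15 to 0.33). The intervals of both receptor genes exclude a change as large as that fitted for Eip75B.

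Eip74EF, Eip75B and br are the classical early genes, which were first known as ecdysone-induced puffs on larval salivary gland chromosomes. Eip74EF encodes transcription factors of the Ets family. It was measured at 9.94 and 18.0 in the piwi-embKD libraries and at 4.31 and 3.87 in the white-embKD libraries. Both piwi-embKD libraries were above both controls, but they also stood apart from each other: replicate 2 exceeded replicate 1 by 0.80 on the log2 scale, and 95.8% of all features had a smaller gap. The means were 14.0 ± 5.69 in piwi-embKD and 4.09 ± 0.31 in white-embKD, with a log2 change of 1.503 ± 0.28 (adjusted p = 0.0314). The call did not hold under median-of-ratios scaling (adjusted p = 0.0529) or without the intensity trend (0.0506).

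Eip75B encodes E75, a heme-binding nuclear receptor that acts as a repressor. Its levels were 42.6 and 41.1 in piwi-embKD and 23.6 and 22.3 in white-embKD. Here the libraries of each group sat close together and the groups were well apart. The means were 41.8 ± 1.07 in piwi-embKD and 22.9 ± 0.91 in white-embKD, a log2 change of 0.84 ± 0.11 (adjusted p = 0.0102, 95% interval 0.57 to 1.11), and 94.4% of features had a lower change.

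The zinc finger transcription factors of the gene br are best known in the ovary for patterning the dorsal appendages of the eggshell. Its levels of 11.7 and 13.5 in piwi-embKD lay above the 7.49 and 6.94 of white-embKD, with no overlap. The means were 12.6 ± 1.27 in piwi-embKD and 7.22 ± 0.39 in white-embKD, a ratio of 1.75. The log2 change of 0.73 ± 0.16 had an adjusted p of 0.0527, just outside the threshold. With 4 times the pseudocount the adjusted p was 0.0478, and without the intensity trend 0.0378.

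Taiman, the product of tai, is a coactivator that binds the hormone receptor and was named for its role in border cell migration. Its level was 29.1 and 48.3 in piwi-embKD and 27.4 and 28.4 in white-embKD. Replicate 2 of piwi-embKD was alone in standing clear of the rest, and replicate 1 was barely above the controls. The log2 change was 0.41 ± 0.23 (adjusted p = 0.308). Without piwi-embKD replicate 1 it was 0.77. Over the libraries left out in turn it was between 0.06 and 0.77, so a single library set the value.

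The nuclear receptors that act later in the cascade did not move as a block. The gene ftz-f1 encodes a receptor that makes tissues competent for the next hormone pulse and is also a maternal partner of the segmentation protein Ftz. It stood at 221 and 319 in piwi-embKD and at 255 and 250.0 in white-embKD. The piwi-embKD libraries lay on either side of the controls. The log2 change was 0.07 ± 0.17 (adjusted p = 0.826). It was -0.20 without piwi-embKD replicate 2 (adjusted p = 0.0812) and 0.33 without piwi-embKD replicate 1 (adjusted p = 0.0125), so the direction depended on the library kept.

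Hr39 encodes the closest fly relative of the Ftz-F1 receptor and is known for the secretory glands of the female reproductive tract. Its levels were 93.8 and 105 in piwi-embKD and 121.6 in each white-embKD library. Both piwi-embKD libraries were below both controls. The log2 change of -0.29 ± 0.10 had an unadjusted p of 0.0265 and an adjusted p of 0.147, and did not pass the test. Over the libraries left out in turn the change was between -0.37 and -0.21.

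Hr4 encodes a nuclear receptor that, in larvae, represses early genes after the hormone peak. It was the lowest in count depth of the 9 genes, at 5.02 and 4.70 in piwi-embKD and 0.90 and 0.92 in white-embKD, which corresponds to 79.8 and 77.0 effective counts in piwi-embKD and 18.3 and 18.4 in white-embKD. The libraries of each group were close and the groups did not overlap. The means were 4.86 ± 0.22 in piwi-embKD and 0.91 ± 0.01 in white-embKD, and the log2 change was 1.62 ± 0.23 (adjusted p = 0.0126, 95% interval 1.06 to 2.18). The white-embKD mean lies under the minimum mean of 0.995 set for testing, so Hr4 entered the test through its piwi-embKD libraries.

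**Figure D2:**
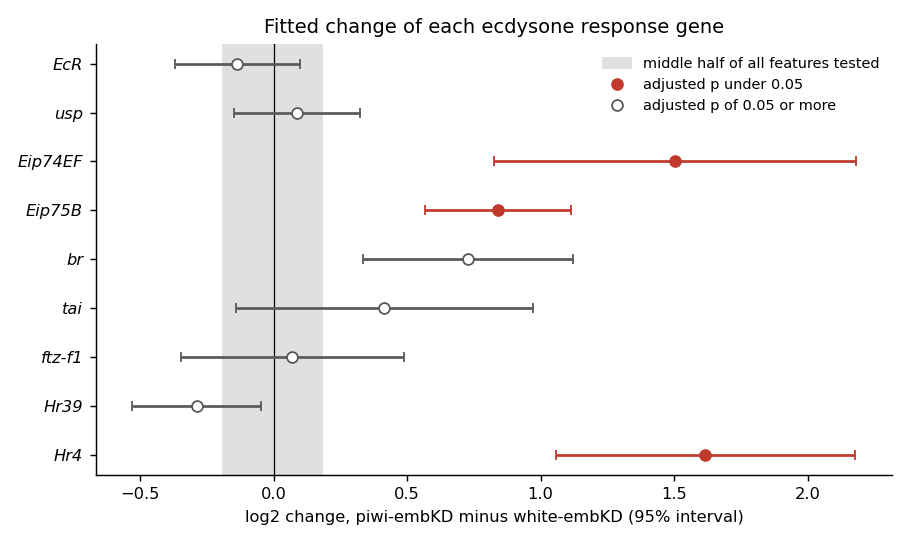
Fitted log2 change of each gene (horizontal axis, piwi-embKD minus white-embKD, points) with 95% intervals from limma (lines); filled red points have an adjusted p under 0.05 and the grey band spans the middle 50% of all 8118 features, from -0.19 to 0.18. Eip74EF, Eip75B and Hr4 lie to the right of the band, at 1.503, 0.84 and 1.62, and the receptor genes EcR and usp lie within it.

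The 3 calls were also looked at with each library left out. Fitted changes stayed between 1.11 and 1.90 for Eip74EF, between 0.80 and 0.88 for Eip75B and between 1.58 and 1.65 for Hr4. All 3 kept their call without either piwi-embKD library, where the share of all features called higher was 16.7% without replicate 1 and 10.7% without replicate 2, and the share called lower 18.8% and 8.38%, so that calls in these fits are more common in general. None kept it without white-embKD replicate 1, where adjusted p was 0.0688, 0.0688 and 0.0912 for Eip74EF, Eip75B and Hr4, or without replicate 2, where it was 0.108, 0.112 and 0.104. Over all features those fits called 2.57% and 2.28% higher. With no filter on low values the calls were lost as well, at adjusted p of 0.146, 0.0656 and 0.0552, and 0.68% of all features were called higher.

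Summed over the 9 genes, the level was 692 and 861 in piwi-embKD and 744 and 735 in white-embKD. The piwi-embKD libraries lay on either side of the control libraries. The difference of means was 36.7, and an exact two-sided permutation test over the 4 libraries gave p = 1.0, where the smallest p such a design allows is 0.333. The sum is carried by EcR, usp, ftz-f1 and Hr39, and says little of the genes at low levels.

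Patterns over the 4 libraries were compared by the root mean square distance between log2 profiles, each centred on its own mean. Among the 9 genes the closest pairs were EcR with Hr39, at 0.077, and Eip75B with br, at 0.103. Of the other 7779 genes tested, those nearest to EcR were CG42638 and Trpml, both at 0.0048, and Ars2 at 0.0057. Trpml encodes an ion channel of lysosomes and Ars2 a protein of the nuclear cap complex. CG42638 and Trpml had identical values in every library, 53.7 and 60.1 in piwi-embKD and 63.6 and 62.1 in white-embKD, and so count as a single measurement. With 4 libraries such a likeness is a description.

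Ecdysone genes often make several transcripts from alternative promoters, and the tables list them by RefSeq accession without isoform letters. Of the 55 transcripts, 28 were at a mean of at least 0.995 and were tested. None was called, against 0.548% called higher and 0.0676% called lower among all 14790 transcripts and transposons tested. At an unadjusted p under 0.05 limma gave 8 higher and 2 lower among the 28, and the lowest adjusted p was 0.133. The unadjusted share over all transcripts is not given here. Among the 8 were 3 transcripts of Eip74EF with identical values in every library, which count as a single measurement. These 3, NM_165364 of Hr39 and NM_166898 of br had white-embKD means under 0.995, so they entered the test through piwi-embKD. The share of each transcript in its gene was tested as well, and 0% of 10023 shares were called by limma over all genes, with 869 at an unadjusted p under 0.05. The share was fitted as log2 of (transcript value + 0.995) over (gene value + 0.995). At low levels this can fall when the gene rises, even where the percent does not. Among the shares of the hormone genes 6 of 28 had an unadjusted p under 0.05, and the lowest adjusted p was 0.474. One of the 6, NM_168741 of Eip74EF, overlapped in percent, at 25.8% and 33.4% in piwi-embKD and 30.1% and 35.5% in white-embKD.

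Both tested transcripts of ftz-f1 differed in share without overlap. The remaining transcript held 0.049% of the gene or less in every library, so each tested share nearly fixes the other. Both are among the 6 of 28 above but amount to a single observation. NM_001259895 stood at 33.8 and 51.5 in piwi-embKD and 22.3 and 23.9 in white-embKD, and made up 15.3% and 16.2% of the gene in piwi-embKD and 8.74% and 9.54% in white-embKD. NM_079419, the major transcript, made up 84.7% and 83.8% in piwi-embKD and 91.3% and 90.5% in white-embKD. The share of the minor transcript was thus higher in both piwi-embKD libraries even though the gene's level was not, but its adjusted p was 0.519.

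A minor transcript of Hr39, NM_165364, was measured at 3.01 and 2.72 in piwi-embKD and at 0.01 and 0.04 in white-embKD. The white-embKD values are under the value of 3 counts, so the transcript entered the test through piwi-embKD, and it was not called (adjusted p = 0.133). The main transcript of Hr39, NM_057584, was lower in both piwi-embKD libraries, at 58.6 and 69.5 against 85.4 and 87.0 in white-embKD (log2 change -0.43, adjusted p = 0.239).

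In Eip75B the transcripts did not all follow the gene. NM_168757 stood at 17.6 and 19.0 in piwi-embKD and 8.36 and 8.50 in white-embKD, and NM_079409 at 15.6 and 13.7 in piwi-embKD and 7.83 and 7.21 in white-embKD. Against these higher values, NM_001259892 was at 2.83 and 1.20 in piwi-embKD and 3.07 and 3.16 in white-embKD, and its share was 6.64% and 2.93% in piwi-embKD and 13.0% and 14.2% in white-embKD (adjusted p of the share 0.519). The transcripts of EcR lay on both sides of 0, and none was called. NM_165461 was at 27.9 and 47.3 in piwi-embKD and 57.5 and 65.5 in white-embKD (log2 change -0.74, adjusted p = 0.294), and NM_165462 was lower in both piwi-embKD libraries too (-0.32, 0.425). NM_165465 was higher in both, at 6.42 and 8.41 in piwi-embKD and 3.99 and 5.49 in white-embKD (0.56, 0.456), and NM_165463 (0.60, 0.430) and NM_165464 (1.17, 0.493) had overlapping groups. None of the 9 transcripts of Hr4 reached the minimum on its own, and 3 of the 5 transcripts of Eip74EF had identical values in every library, so the deposited estimates do not separate them.

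**Figure D3:**
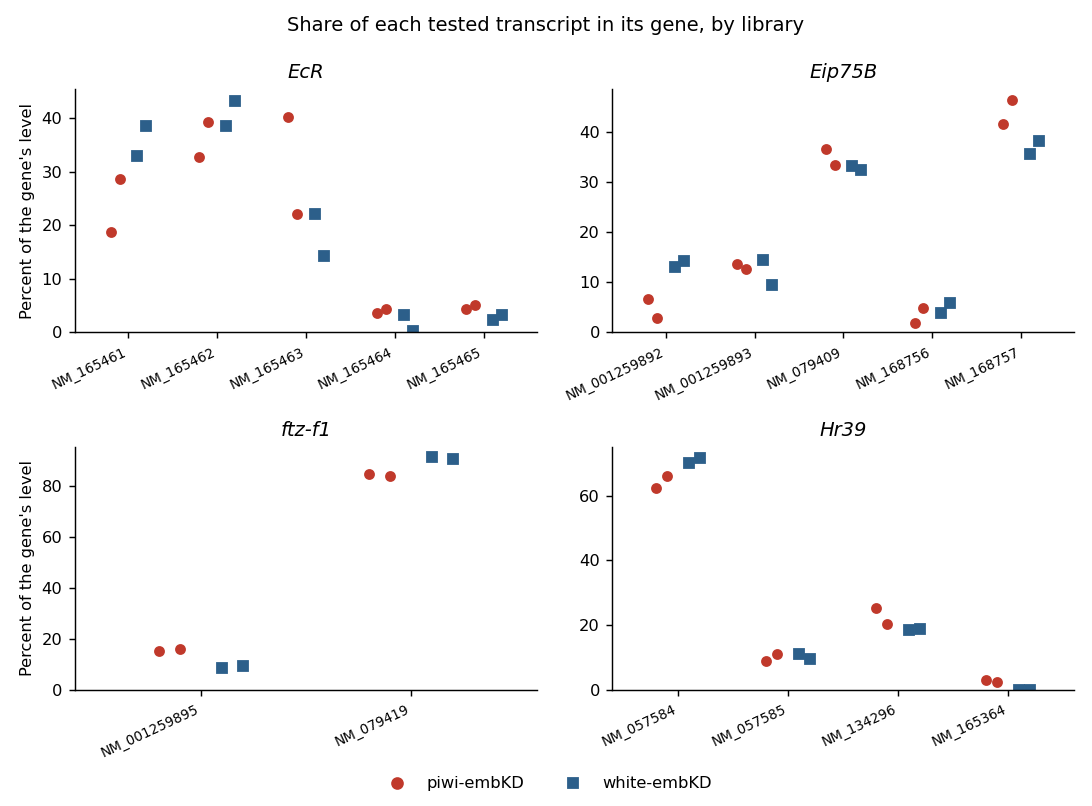
Percent of the gene's level held by each tested transcript (vertical axis from 0) of EcR, Eip75B, ftz-f1 and Hr39; red circles are the 2 piwi-embKD libraries and blue squares the 2 white-embKD libraries. NM_001259895 of ftz-f1 lies at 15.3% and 16.2% in piwi-embKD and at 8.74% and 9.54% in white-embKD; none of the differences passed the test.

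Neighbouring genes could add to some of these values, because the sources used here do not give the strand setting of the authors' counting. In the BDGP6 annotation, br on chromosome X shares 189 exon bases, 0.936% of its own, with Mur2B on the opposite strand. Mur2B stood at 133 and 118 in piwi-embKD and 40.1 and 29.8 in white-embKD (log2 change 1.83, adjusted p = 0.00205). How many fragments of Mur2B were counted for br is not known. The share of bases therefore does not tell how uncertain the value of br is. Hr4, also on X, shares 46 bases (0.331%) with PIG-K on the opposite strand, which stood at 63.2 and 52.6 in piwi-embKD and 63.2 and 67.3 in white-embKD. Exon bases of usp, on X, overlap Actn on the same strand (265 bases, 8.72% of usp) and CG4313 on the opposite strand (196 bases, 6.45%). Actn stood at 110 and 143 in piwi-embKD and 120 and 119 in white-embKD. Its overlap makes the value of usp uncertain whatever the strand setting. Eip74EF, Eip75B and ftz-f1 on 3L, Hr39 on 2L and EcR on 2R share no exon bases with another gene measured here, and tai on 2L shares 164 with aust, which was at or near 0.

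The rest of the pathway was read from a list of 60 genes, of which 43 were tested. Of these, limma called 5 higher and 0 lower, beside 5.17% and 1.68% of all features. At an unadjusted p under 0.05 limma gave 16 higher and 3 lower, and the median log2 change was 0.20. Both piwi-embKD libraries were above both controls for 21 of the 43 and below them for 11, beside 25.9% and 33.1% of all features. Eip78C and Ldh are among the 21, and Eip78C is also among the 16. Their white-embKD means, 0.429 for Eip78C and 0.882 for Ldh, were under the minimum set for testing. Both genes therefore entered the test through their piwi-embKD libraries, which favours the higher side in these counts. The 5 called genes belong to 5 different roles.

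In hormone synthesis, 8 of 11 genes were tested and 1 was called. That gene, spo, encodes a cytochrome P450 of the synthesis pathway, and stood at 12.3 and 16.7 in piwi-embKD and 5.72 and 5.35 in white-embKD (log2 change 1.23 ± 0.19, adjusted p = 0.0175). The median of the 8 was 0.83, and 6 of them had both piwi-embKD libraries above both controls, beside 25.9% of all features. Among those 6, named after their values were seen, phtm stood at 4.18 and 4.46 in piwi-embKD and 1.81 and 1.38 in white-embKD (log2 change 1.04, adjusted p = 0.0526), and sro at 6.18 and 7.72 in piwi-embKD and 3.06 and 3.58 in white-embKD (0.88, 0.0624). Both encode enzymes of the same pathway, and neither passed the test, nor did the P450 gene sad (0.78, 0.0824). The gene of the list with the highest count was mld, a zinc finger factor needed for synthesis gene expression. It stood at 147 and 205 in piwi-embKD and 207 and 197 in white-embKD (-0.21, 0.443). The paralogue of spo, spok, was under the minimum and not tested, at 1.84 and 0.56 in piwi-embKD and 0 in both white-embKD libraries.

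Among other nuclear receptors, 6 of 10 were tested and Hr3, a receptor induced in the early-to-late step of the cascade, was called. It was measured at 8.86 and 5.62 in piwi-embKD and 2.75 and 2.35 in white-embKD (log2 change 1.19 ± 0.26, adjusted p = 0.0478). Under median-of-ratios scaling its adjusted p was 0.0537, and with a pseudocount of 0.249 it was 0.0503. Hr78 had the highest count of these receptors, at 100.5 and 106 in piwi-embKD and 109 and 107 in white-embKD (-0.06, 0.685). The median of the 6 was -0.07.

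Of 16 other hormone targets 11 were tested, and ImpL2, which encodes a secreted protein that binds insulin-like peptides, was called. Its level was 23.4 and 21.5 in piwi-embKD and 9.85 and 9.83 in white-embKD (log2 change 1.11 ± 0.14, adjusted p = 0.00751). Hsp27, a small heat shock protein gene, had the highest count of these targets. It stood at 240.2 and 270.1 in piwi-embKD and 335 and 318 in white-embKD (-0.36, 0.0965). The targets thus lay on both sides of 0, with a median of 0.22.

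The cofactors included 11 tested of 12, with trr called. This gene encodes a histone methyltransferase that works with EcR, and stood at 68.1 and 57.8 in piwi-embKD and 38.2 and 36.4 in white-embKD (log2 change 0.73 ± 0.12, adjusted p = 0.0204). E(bx), a chromatin remodelling subunit and the cofactor with the highest count, stood at 722 and 712 in piwi-embKD and 799.6 and 779 in white-embKD (-0.14, 0.377). Among genes of juvenile hormone, the partner hormone of ecdysone, 4 of 6 were tested and Jheh2, an epoxide hydrolase gene of its breakdown, was called at 136 and 159.6 in piwi-embKD and 94.7 and 97.4 in white-embKD (0.61 ± 0.11, 0.0269). Without the intensity trend the adjusted p of Jheh2 was 0.0596.

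Genes of hormone uptake, export and turnover gave 0 calls among 3 tested (limma, none at an unadjusted p under 0.05). The transporter gene E23, with the highest count of them, stood at 169 and 134 in piwi-embKD and 146 and 143 in white-embKD (log2 change 0.05, adjusted p = 0.811). All 5 calls of the wider list were lost with no filter on low values and without white-embKD replicate 2, and ImpL2 alone was kept without white-embKD replicate 1 (adjusted p = 0.0462).

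Markers of several cell types differed between the same libraries. Those of follicle cells, the somatic cells that answer ecdysone and build the eggshell, summed to 3185 and 3207 in piwi-embKD and 1406 and 1364 in white-embKD, and 5 of the 6 tested of 8 listed were called higher. Yp2, a yolk protein gene, had the highest count of them. It stood at 1381 and 1453 in piwi-embKD and 629.8 and 622 in white-embKD (log2 change 1.18, adjusted p = 0.00158). All 5 markers of vitelline membrane stages and all 6 of chorion stages were called higher as well. Their sums were 2742 and 3886 in piwi-embKD and 648 and 535 in white-embKD for the vitelline list, and 6416 and 8684 in piwi-embKD and 2917 and 2923 in white-embKD for the chorion list. In bulk RNA, fewer or more cells of a type and less or more RNA per cell cannot be told apart.

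Germline markers summed to 4664 and 4888 in piwi-embKD and 5719 and 5480 in white-embKD, with none of 8 called by limma (unadjusted p under 0.05: 1 higher and 3 lower) and a median log2 change of -0.16. Muscle markers, which the ovary's own sheath expresses, summed to 217 and 181 in piwi-embKD and 124 and 115.1 in white-embKD, with 4 of 7 called higher. Gut markers summed to 27.4 and 0.523 in piwi-embKD and 163 and 143 in white-embKD, with 5 of 7 called lower. For 4 of those 5 the piwi-embKD mean was under the minimum of 0.995, so they entered the test through white-embKD. The sums were 176 and 144 in piwi-embKD and 144 and 139 in white-embKD for fat body, 3.88 and 3.46 in piwi-embKD and 2.24 and 2.07 in white-embKD for blood cells, and 7.28 and 5.34 in piwi-embKD and 5.05 and 4.72 in white-embKD for nerve. For testis they were 10.6 and 10.2 in piwi-embKD and 6.49 and 6.81 in white-embKD, and for oviduct and spermatheca 24.8 and 29.3 in piwi-embKD and 19.2 and 18.9 in white-embKD. The fat body sums overlapped between the groups, and the other 4 were higher in both piwi-embKD libraries. These 5 lists had none called by limma among 6 genes tested, with 4 higher at an unadjusted p under 0.05. The share of all features at that unadjusted threshold is not given, here or for the germline markers. Defining genes at 0 in every library were Fbp2 for fat body, He for blood cells, and Mst87F, can and dj for testis. The part of these cell types in the changes of the hormone genes was not tested.

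**Figure D4:**
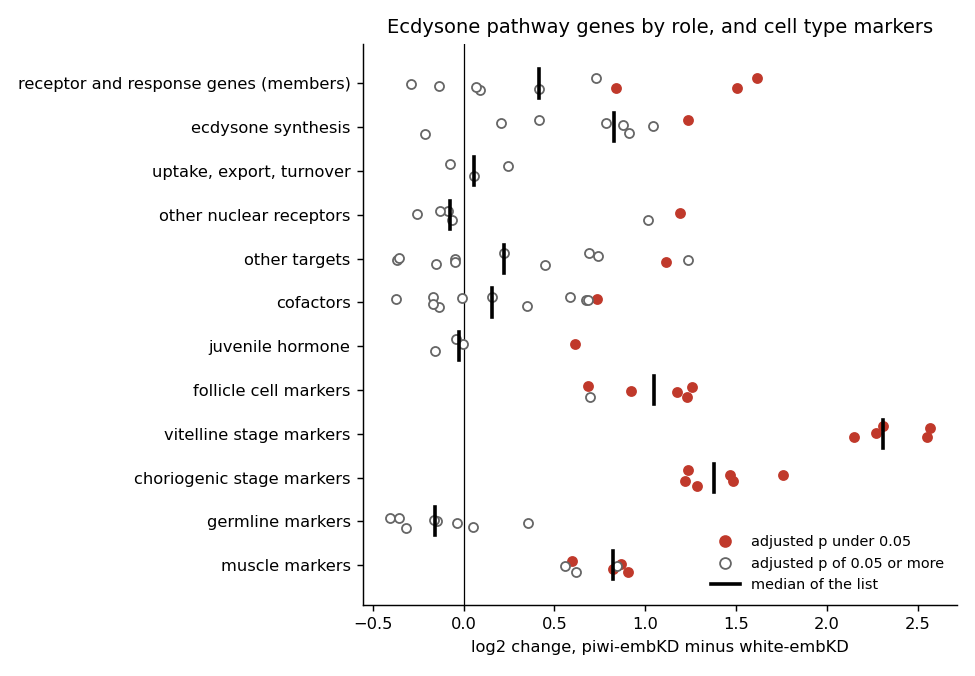
Log2 change (horizontal axis, piwi-embKD minus white-embKD) of each tested gene, one row per list; filled red points have an adjusted p under 0.05 and black bars are list medians. Synthesis genes centre on 0.83 and follicle cell markers on 1.05, while other nuclear receptors (-0.07) and germline markers (-0.16) centre near 0.

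To set the hormone genes beside the follicle cell signal, each was divided by tj, Fas3 and eya in the same library, a step chosen after seeing the data and given with no test. These follicle cell genes stood at 34.5 and 30.0 in piwi-embKD and 16.6 and 16.3 in white-embKD (tj), at 32.6 and 34.4 in piwi-embKD and 20.3 and 20.7 in white-embKD (Fas3), and at 12.2 and 13.4 in piwi-embKD and 7.63 and 7.46 in white-embKD (eya). On this scale Hr4 still had a higher mean in piwi-embKD, by 2.73, 3.26 and 3.13 times for tj, Fas3 and eya, and Eip74EF by 1.79, 2.07 and 1.98 times. Eip75B came to 0.937, 1.12 and 1.08 times the white-embKD mean and br to 0.904, 1.07 and 1.03 times, so these genes changed by about as much as these 3 markers did.

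These 3 were the tested follicle cell markers that differed least between the groups, by 1.95, 1.63 and 1.70 times for tj, Fas3 and eya. The ratio of the piwi-embKD mean to the white-embKD mean was 1.63 to 2.40 over the 6 tested follicle cell markers, 2.36 to 3.39 over the 6 of chorion stages and 4.62 to 6.05 over the 5 of vitelline membrane stages. With every one of these 17 markers as the divisor in turn, also added after seeing the data, the ratio of Hr4 ran from 0.890 to 3.26 and was above 1 for 15, and that of Eip74EF ran from 0.550 to 2.07 and was above 1 for 11. Against the vitelline list alone, Hr4 came to between 0.890 and 1.16 and Eip74EF to between 0.550 and 0.726. Eip75B ran from 0.307 to 1.12 and br from 0.293 to 1.07, each above 1 for 2 of the 17. The side of 1 on which Hr4, Eip74EF, Eip75B and br fall thus depends on the marker.

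EcR, usp, ftz-f1, Hr39 and tai were below 1 with each of the 17 markers. With tj, Fas3 and eya, EcR came to 0.470, 0.557 and 0.535 times the white-embKD mean, usp to 0.549, 0.651 and 0.625 times, ftz-f1 to 0.556, 0.650 and 0.623 times, and Hr39 to 0.423, 0.5003 and 0.481 times. For each of these 4 genes both piwi-embKD ratios lay below both white-embKD ratios with each of the 3 markers. Genes such as ftz-f1, whose product is loaded into the egg, are expressed in the germline as well, so a ratio to a follicle cell marker is not their level per follicle cell.

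**Figure D5:**
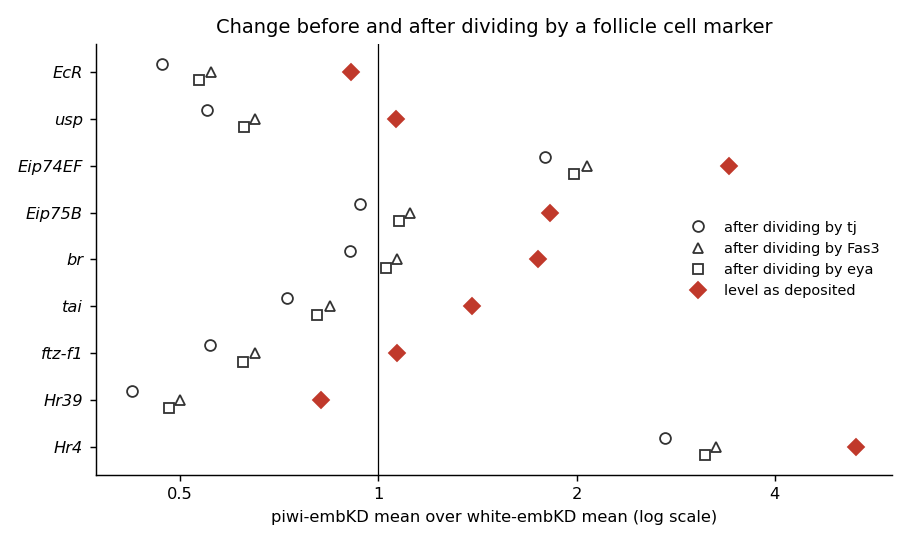
Ratio of the piwi-embKD mean to the white-embKD mean (horizontal log axis) for each gene, as deposited (red diamonds) and after dividing by tj (circles), Fas3 (triangles) or eya (squares). Hr4 and Eip74EF stay to the right of 1 with each of these 3 markers, Eip75B and br move to about 1, and EcR, usp, ftz-f1 and Hr39 move to between 0.423 and 0.651.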

How the data were processed

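Ovary total RNA depleted of ribosomal RNA was read as 150 nt pairs on an Illumina NextSeq 500, per the labels' protocols. For each library the authors deposited a signal table of 29637 targets, and this signal, per the file headers and names, is the eXpress effective count times a normalization factor. The submitters' processing notes name Bowtie2, STAR, Cufflinks and the build dm3. The sources used here do not state the tools' roles, the strand setting or the origin of the factor.

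A RefSeq gene table of the Release 6 assembly named 28595 of 29511 transcripts (96.9%). The other 916 held 0.472% to 0.671% of a library and kept their own rows. Values were summed per gene, and 8118 features with a mean of at least 0.995 (7780 genes, 107 transposons, 231 unnamed transcripts) were fitted in limma 3.58.1 (R 4.3.3) on log2(value + 0.995) with an intensity trend. The fit was checked on simulated data in which all libraries varied alike, unlike the looser piwi-embKD pair here. The pseudocount is the mean column total divided by 1e+06. P-values are two-sided and adjusted by Benjamini-Hochberg, with a threshold of 0.05.

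Columns summed to 1017515 and 1004549 in piwi-embKD and 989279 and 970340 in white-embKD. Depth was inferred from the smallest step between values, taken as 1e-06 of an effective count. These floors allow for counting error alone. Between 3.76% and 4.18% of values worth 0.5 to 20 counts came out whole, so no count test was run.

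The members and all lists were chosen with earlier results of these data known. Named genes were the 9 members and every called gene of the wider list. The genes with the highest counts in each role and the 3 genes nearest to EcR were named too. Others are marked where they appear. Alternatives covered the pseudocount, filter, scaling, variance trend, each library left out, a replicate block and transcripts left unsummed. No reference sequence was used.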

Additional observations from a re-analysis of the deposited data

How the results depend on the processing

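The members called higher (3) were 0 with no filter on low values, 0 with transcripts left unsummed and between 0 and 6 with 1 library left out, and the members called lower (0) were between 0 and 1. The count was 0 without either white-embKD library, 6 when piwi-embKD replicate 1 was dropped and 4 when its replicate 2 was. Over all features the share called higher, 5.17% as reported, was 2.57% and 2.28% without white-embKD replicates 1 and 2, 16.7% and 10.7% without piwi-embKD replicates 1 and 2, 0.68% with no filter, 5.58% with no intensity trend and 7.22% with the replicate block, and the share called lower, 1.68% as reported, was 18.8% and 8.38% without piwi-embKD replicates 1 and 2. Counts are therefore not comparable between these settings. The wider list (5 higher, 0 lower) gave 0 higher with no filter, 9 with no intensity trend, 11 with the replicate block, between 0 and 18 with 1 library left out, and between 0 and 4 lower. The median log2 change of the members (0.41) was 0.25 with the stricter filter, which leaves 8 members and drops Hr4, and between 0.058 and 0.77 with 1 library left out. The change of ftz-f1 ran from -0.20 to 0.33 over the libraries left out and was -0.20 without piwi-embKD replicate 2. The summed level difference (36.7) was 46.6 under median-of-ratios scaling and between -47.7 and 121 with 1 library left out. Where 1 library remained in a group, it was assumed to vary like the other group. Apart from the stricter filter and the unsummed transcripts, where fewer or other features enter, the cause of these shifts was not tested.

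Deviations of same-numbered libraries correlated at 0.058, which shows no pairing by replicate number, although a single correlation cannot settle it. With the replicate block 4 members were called, br among them (adjusted p = 0.0382). There are 2 libraries per group, and the piwi-embKD pair (median log2 gap 0.191) was looser than the white-embKD pair (0.0847). Hr4 rests on the fewest counts.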
